A study of Mus musculus with 23 samples.

Results

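Trp63, Bnc1, Grhl1, Grhl2, Grhl3, Ovol1, Klf5, Ehf and Elf3 are 9 transcription factor genes known for their work in epithelial cells, and their expression was followed in cells sorted from the growing end of the mouse incisor. They form a chosen list, 9 of the 54347 genes in the deposited table, and all 9 were among the 17190 genes that passed the filter on low counts. The list was selected on measured values of these libraries, with the difference between Sox2-positive and Sox2-negative cells in view, so for these genes the difference between the populations is given as a description, with no test. The cells came from the labial cervical loop, the epithelial pouch at the base of the lower incisor, in mice at postnatal day 2. All groups came from the Sox2-GFP line, in which green fluorescent protein reads out the endogenous Sox2 promoter, and the labels name no treatment. Sorting by fluorescence gave Sox2-positive cells, taken by the labels as dental epithelial stem cells, and a Sox2-negative remainder, which holds every other cell type of the dissected piece. Libraries were made with Smart-seq2, a full-length RNA protocol for small inputs, with 6 Sox2-negative and 6 Sox2-positive libraries in batch A and 4 and 7 of them in batch B. Each batch had its own day and its own mice. Nothing in the labels says that the libraries of a batch came from separate mice, so n counts libraries, and p-values measure only the spread between libraries, which may be technical.

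The protein p63, made from Trp63, is needed to form and keep stratified epithelia and is found in their basal layer, and mice without it do not form teeth. Grainyhead-like factors (Grhl1, Grhl2 and Grhl3) switch on genes of cell junctions and of the epithelial barrier, while Ovol1 is a zinc finger repressor that acts during epithelial maturation. Bnc1 encodes basonuclin, a zinc finger protein of basal keratinocytes, Klf5 is a Krüppel-like factor of dividing epithelial cells, and Ehf and Elf3 are ETS factors found mainly in epithelia.

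Sequence before the start site is shown for 3 of the genes. Bnc1 and Grhl3 were chosen because they differed between the batches in Sox2-positive cells, and Elf3 because 5 of the 6 Sox2-negative libraries of batch A held no count of it. The sixth library held 30 counts of Elf3, and Bnc1 and Grhl3 each also had no count in 5 of the 6. The windows are RefSeq sequence on build GRCm38.p6, in which 4 of the 9 genes had an entry, and each is written 5′ to 3′ on the strand of its gene. The Bnc1 window lies at chr7:81992300-81992549 and the Grhl3 window at chr4:135573633-135573882, both on the minus strand and both just before the annotated start of the gene. The Elf3 window, on the minus strand at chr1:135258569-135258722, was shortened to the 154 bases that lie outside the annotated gene. Capitals mark CACCTG, the reverse complement of CAGGTG, the E-box that repressors of the Snai and Zeb families are known to bind.
Bnc1: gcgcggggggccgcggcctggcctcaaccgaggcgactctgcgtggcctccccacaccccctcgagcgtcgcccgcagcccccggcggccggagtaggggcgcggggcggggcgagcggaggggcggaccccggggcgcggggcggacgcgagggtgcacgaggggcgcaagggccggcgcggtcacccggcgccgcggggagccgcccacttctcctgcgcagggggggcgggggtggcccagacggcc
Grhl3: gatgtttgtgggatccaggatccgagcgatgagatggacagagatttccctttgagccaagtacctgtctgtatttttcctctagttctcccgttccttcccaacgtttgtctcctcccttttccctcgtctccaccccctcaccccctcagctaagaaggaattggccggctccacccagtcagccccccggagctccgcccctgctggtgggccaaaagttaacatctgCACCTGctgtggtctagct
Elf3: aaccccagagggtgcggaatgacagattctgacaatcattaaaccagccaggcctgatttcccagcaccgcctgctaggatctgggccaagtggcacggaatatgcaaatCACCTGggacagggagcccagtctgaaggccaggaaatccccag

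Grhl3 held the E-box from 19 to 14 bases before its RefSeq start, and Elf3 from 140 to 135 bases before its own. The Bnc1 window had no match, and 17.2% of the 32851 windows of 250 bases in the table held this motif on either strand. The Bnc1 window was 83.6% G and C, against a median of 52.4% over all windows. It held CCNCNCCC, a motif of the CACCC type that Krüppel-like factors are known to bind, at 7 places counted on both strands, several of which overlap each other. Grhl3 held that motif at 2 places, which overlap, and Elf3 at 1 place, and 45.9% of all windows held it. Neither the grainyhead motif AACNGGTT, present in 1.79% of all windows, nor the ETS motif CCGGAAG, present in 6.91%, was found in the full windows of these 3 genes. Such matches and gaps describe these letters and say nothing of binding.

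Libraries held between 2305778 and 9541443 estimated counts, with a median of 4831091. The deposited values are almost never whole, so they may carry a scaling per gene that the sources used here do not give. Counts, counting intervals and levels per kilobase below take these estimates as reads. Levels are given as CPM, which corrects the counts for library total and TMM factor. Where all libraries of a group had 0 counts, 3 counts per library served as a bound, which came to between 0.357 and 1.30 CPM. Other levels under that bound are given as estimated and rest on very few counts. Sox2, the gene behind the sort, had at most 1.14 CPM in Sox2-negative libraries and at least 2.55 CPM in Sox2-positive ones, so the sorted populations did not overlap in it. A gene is said to be called, or to be higher or lower in a count, where its adjusted p over all genes by edgeR's quasi-likelihood test was under 0.05. The labelled tissue holds epithelium, and 10 of 10 pan-epithelial markers such as Epcam and Krt14 were higher in Sox2-positive cells. Their summed level lay between 182 and 466 CPM over the Sox2-negative libraries and between 4266 and 6926 CPM over the Sox2-positive ones. Of 8 glial and neural crest markers 7 were higher in Sox2-positive cells as well and 1 was lower. Their sums were 24.2 to 59.0 CPM in Sox2-negative and 921 to 1184 CPM in Sox2-positive libraries of batch A, and 34.4 to 51.4 CPM against 50.6 to 94.5 CPM in batch B. Of 5 ameloblast markers tested (of 7 listed), 4 were lower in Sox2-positive cells and 1 was higher. Their sums were 747 to 940 CPM in Sox2-negative and 293 to 349.5 CPM in Sox2-positive libraries of batch A. In batch B they were 596 to 712 CPM against 9.72 to 17.5 CPM. All 12 mesenchymal, 8 endothelial, 9 leukocyte and 7 erythroid markers were lower in Sox2-positive cells, and the part of these other cells in the population differences was not tested. Since whole sorted populations were sequenced, fewer cells that make a transcript and less of it per cell cannot be told apart.

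**Figure D1:**
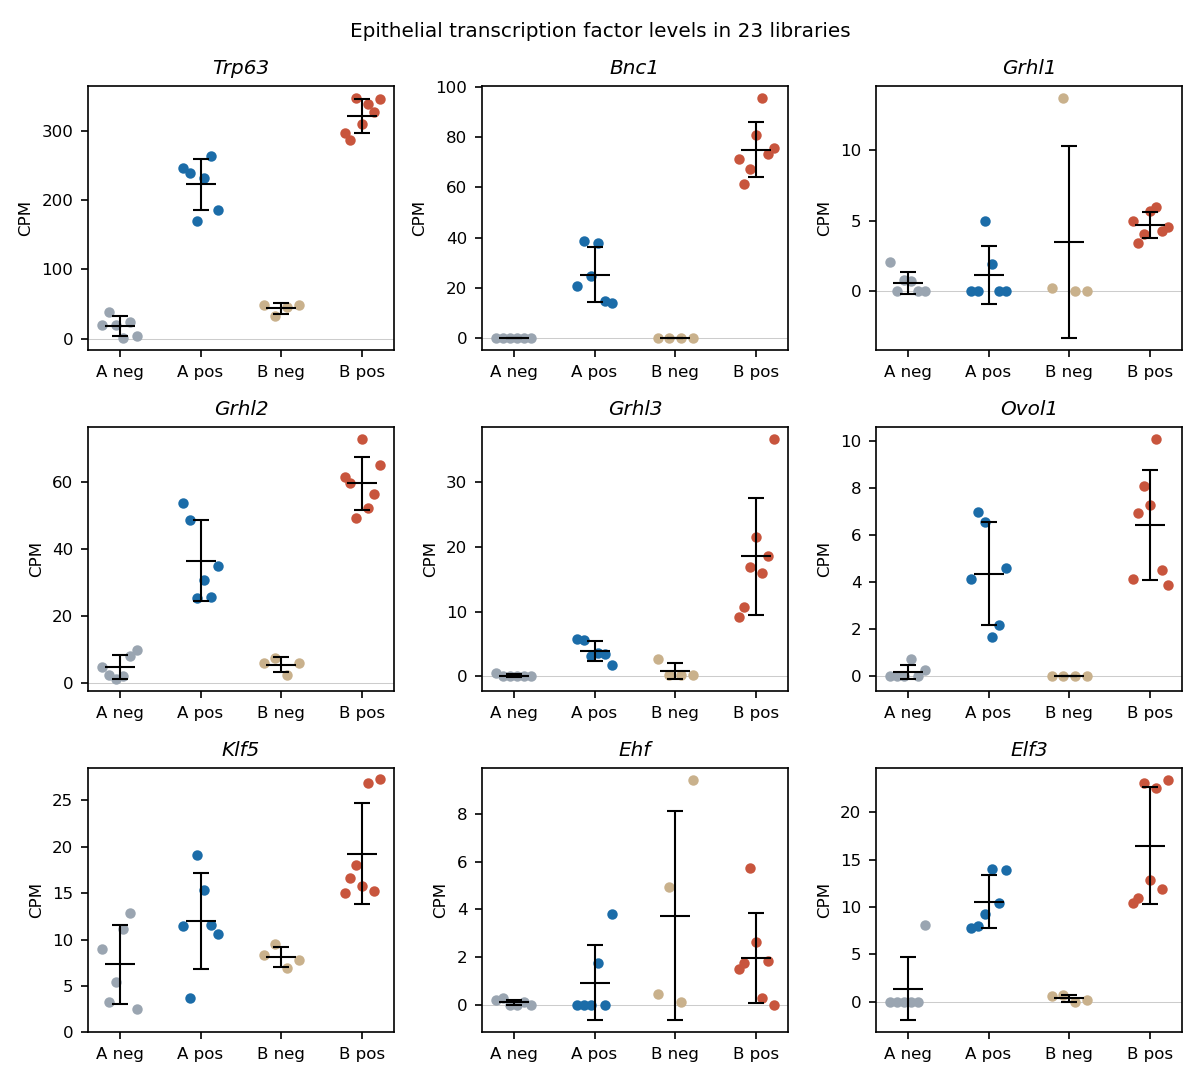
Level of each gene in every library, in CPM on a linear scale that differs between panels, for batch A (A neg, n = 6; A pos, n = 6) and batch B (B neg, n = 4; B pos, n = 7), where neg and pos are Sox2-negative and Sox2-positive cells. Points are libraries, horizontal bars are means and whiskers are the SD. For Trp63, Bnc1, Grhl2, Grhl3 and Ovol1 every Sox2-positive library lies above every Sox2-negative library of its batch, while Grhl1 and Ehf overlap.

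Trp63 was the most abundant of these genes. Trp63 (chr16:25683763-25892102, plus strand of GRCm38, with 8 annotated protein-coding transcripts that gene-level counts do not separate) had a lowest, median and highest level of 170.2, 235 and 264 CPM in the Sox2-positive libraries of batch A. In those of batch B it had 286, 326 and 347 CPM. Sox2-negative libraries of batch A ranged from 0.327 CPM, a level of 1 count, to 38.6 CPM with a median of 20.3, and the 4 of batch B had 48.5, 32.6, 45.9 and 48.4 CPM. All Sox2-positive libraries stood above all Sox2-negative ones, and the means differed 12.5-fold in batch A and 7.33-fold in batch B. On the log2 scale the difference over both batches was 3.26 (SE 0.33), with 3.62 in batch A and 2.87 in batch B. Trp63 was thus present in most Sox2-negative libraries. Their summed pan-epithelial markers were 182 to 250.4 CPM in batch A and 424 to 466 CPM in batch B, and the part of such cells in the Trp63 level was not tested.

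Bnc1 was nearly absent from Sox2-negative cells. Bnc1 (chr7:81966672-81992292, minus strand) had 1 count over the 6 Sox2-negative libraries of batch A and 1 count over the 4 of batch B. In Sox2-positive cells its lowest, median and highest levels were 14.2, 22.9 and 38.6 CPM in batch A and 61.5, 73.1 and 95.6 CPM in batch B. The ratio of the populations was 611 in batch A (95% counting interval 109 to 24155) and 1957 in batch B (351 to 77319.6). Both intervals are exact binomial ones that cover counting error only, since several reads can stem from 1 molecule where no molecular identifiers were used. The populations did not overlap in either batch. A short pseudogene on the opposite strand, 4833418N17Rik, shares 98 bases of exon with Bnc1, and since no strand setting of the counting is given, their reads cannot be told apart there.

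Of the grainyhead-like genes, Grhl2 and Grhl3 separated the populations within each batch, while Grhl1 levels overlapped. Grhl2 (chr15:37233036-37363569, plus strand) had a lowest, median and highest level of 25.4, 32.7 and 53.7 CPM in Sox2-positive libraries of batch A and 49.3, 59.6 and 72.7 CPM in those of batch B. In Sox2-negative libraries it ranged from 1.13 to 9.96 CPM in batch A, and the 4 libraries of batch B had 5.96, 7.55, 2.49 and 5.96 CPM. The populations did not overlap in either batch, and the means differed 7.77-fold in batch A and 10.8-fold in batch B. The log2 difference over both batches was 3.18 (SE 0.30), with 2.95 in batch A and 3.44 in batch B. An antisense transcript, Gm16136, shares 169 bases of exon with Grhl2 on the opposite strand, and their reads cannot be told apart.

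Grhl3 (chr4:135541888-135573630, minus strand) acts in skin barrier formation and neural tube closure. Its lowest, median and highest levels in Sox2-positive cells were 1.76, 3.49 and 5.69 CPM in batch A and 9.23, 16.9 and 36.6 CPM in batch B. Sox2-negative cells of batch A held 2 counts in all, and the 4 libraries of batch B had 2.66, 0.146, 0.159 and 0.166 CPM. The populations did not overlap within a batch. Their ratio was 46.7 in batch A (95% counting interval 12.6 to 390.2) and 23.6 in batch B, where a single Sox2-negative library carried 22 of the 25 counts.

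Grhl1 (chr12:24572283-24617391, plus strand) was low and uneven. Sox2-positive libraries of batch A had 0 counts in 4 of 6, with 1.98 and 5.02 CPM in the others, whereas all 7 of batch B lay between 3.44 and 5.99 CPM. Sox2-negative libraries of batch A ranged from 0 to 2.06 CPM, and those of batch B had 0.235, 13.7, 0 and 0 CPM. The highest Grhl1 level of all was thus in a Sox2-negative library, and the populations overlapped in both batches. The log2 difference of 0.68 (SE 0.93) was smaller than its error, and it was -0.027 without the third Sox2-positive library of batch A. With any single library left out it ranged from -0.027 to 2.35. Within batch B, where 1 Sox2-negative library held 91 of the 93 counts of its group, the difference was 0.44. That value ranged from 0.076 to 5.43 with single libraries left out, so it depends strongly on single libraries.

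Ovol1 (chr19:5549136-5560646, minus strand) was low but nearly confined to Sox2-positive cells in these libraries. Its lowest, median and highest levels there were 1.65, 4.37 and 7.01 CPM in batch A and 3.90, 6.93 and 10.1 CPM in batch B. Sox2-negative cells held 4 counts over the 6 libraries of batch A, with no library above 0.747 CPM, and none of the 4 libraries of batch B held any. The means differed 26.1-fold in batch A, a ratio that rests on these 4 counts, with all 6 Sox2-negative libraries at 3 counts or fewer. Sox2-positive cells of batch B were at least 14.3-fold higher, taking 3 counts per library as the limit that a count of 0 allows. The value of batch A is a ratio of means and that of batch B a lower bound, so their sizes are not comparable. The opposite strand carries Gm31166, which shares 690 bases of exon with Ovol1, and AC126029.1, which shares 76, so that part of the Ovol1 counts may belong to them.

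Klf5 (chr14:99298691-99315036, plus strand) was expressed in both populations. Its lowest, median and highest levels were 2.56, 7.17 and 12.8 CPM in Sox2-negative and 3.65, 11.5 and 19.1 CPM in Sox2-positive libraries of batch A, which overlapped. In batch B the 4 Sox2-negative libraries had 8.31, 9.49, 6.98 and 7.76 CPM and the Sox2-positive ones 15.01, 16.7 and 27.2 CPM, with no overlap. The means differed 1.62-fold in batch A and 2.36-fold in batch B. Over both batches the log2 difference was 0.93 (SE 0.30).

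The ETS factors Elf3 and Ehf behaved unlike each other. Elf3 (chr1:135253575-135258568, minus strand) had a lowest, median and highest level of 7.78, 9.83 and 13.98 CPM in Sox2-positive libraries of batch A and 10.4, 12.9 and 23.4 CPM in those of batch B. In Sox2-negative cells of batch A 5 libraries held no count and the sixth had 30 counts, or 8.12 CPM, which overlaps the Sox2-positive range, and those of batch B had 0.597, 0.755, 0 and 0.173 CPM with no overlap. The log2 difference over both batches was 3.93 (SE 0.80). An antisense transcript, Gm26642, shares 162 bases of exon with Elf3 on the opposite strand.

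Ehf (chr2:103263433-103303278, minus strand) did not separate the populations. Sox2-positive libraries of batch A had 0 counts in 4 of 6 and reached 3.81 CPM, and those of batch B ranged from 0 to 5.74 CPM around a median of 1.73. Sox2-negative libraries held 3 counts in all in batch A, while those of batch B had 0.466, 4.95, 0.131 and 9.41 CPM, the last above every Sox2-positive library. The log2 difference was 0.59 (SE 0.91), with 2.73 in batch A and -0.88 in batch B.

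Within batch A, 5 of the 9 genes had every Sox2-positive library above every Sox2-negative one, as had 10.9% of all tested genes. Within batch B, Klf5 and Elf3 joined them to make 7 of 9, where 16.1% of all tested genes had such levels. The choice of the list used this contrast, so these counts carry no further reading. As background, the edgeR fit called 57.5% of all tested genes between the populations over both batches, 49.5% within batch A and 42.6% within batch B.

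**Figure D2:**
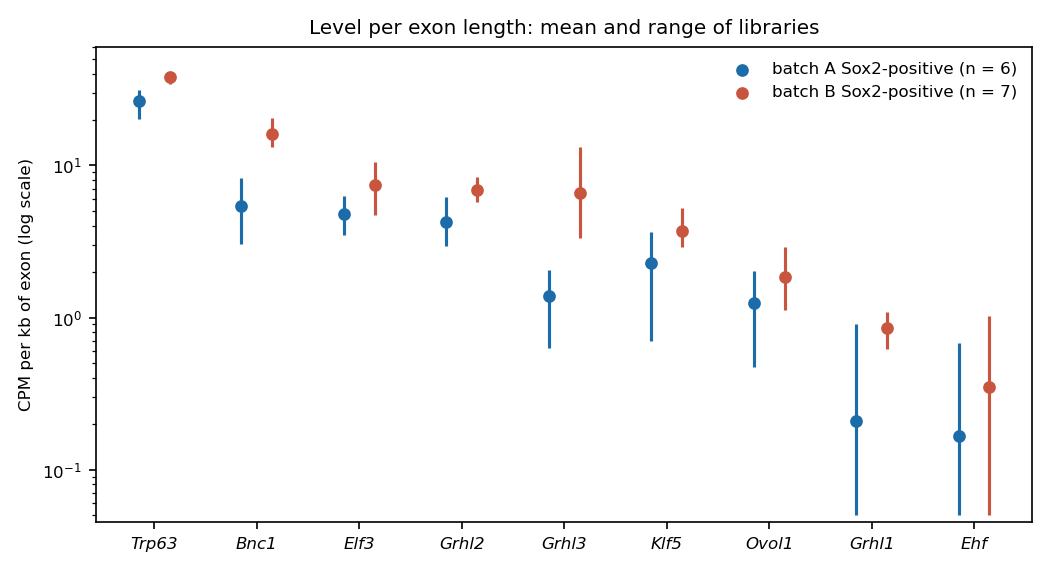
Mean level per kilobase of exon (CPM per kb, log scale) in Sox2-positive cells of batch A (n = 6) and batch B (n = 7), with bars from the lowest to the highest library; a bar that reaches the bottom of its track includes libraries at 0. Trp63 stands above the other 8 genes in both batches, and Grhl1 and Ehf are lowest.

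Levels of different genes were compared only per length, as CPM per kilobase of the union of annotated exons. Trp63 led in Sox2-positive cells with means of 26.6 CPM per kilobase in batch A and 38.3 in batch B. Bnc1 followed with 5.43 and 16.1, Elf3 with 4.76 and 7.42, and Grhl2 with 4.23 and 6.90 CPM per kilobase. In batch A only Trp63 stood clear of the next gene, since the ranges of all other neighbours in the order overlapped.

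Grhl3 had 1.39 CPM per kilobase in batch A and 6.63 in batch B, so that its place moved from below Klf5, which had 2.30 and 3.70, to above it, with overlapping ranges in both batches. Ovol1 came next with 1.25 and 1.84 CPM per kilobase. Grhl1 (0.210 and 0.851) and Ehf (0.166 and 0.352) closed the order. In batch B, Trp63 was clear of Bnc1, Bnc1 of Elf3, and Ovol1 of Grhl1. When the mean length of the coding transcripts replaced the exon union, Trp63 stayed first and Grhl2 came second, with 17.6 CPM per kilobase in batch A and 28.7 in batch B.

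Between the batches, Sox2-positive cells of batch B had more Bnc1 and Grhl3 transcript than those of batch A. Every Bnc1 level in batch B (61.5 to 95.6 CPM) lay above every level in batch A (14.2 to 38.6 CPM), with means of 25.2 ± 10.9 (SD, n = 6) in batch A and 75.0 ± 10.9 (SD, n = 7) in batch B, a 2.97-fold difference. The log2 difference was 1.57 (SE 0.29, adjusted p = 0.00037 by edgeR's quasi-likelihood test). The Grhl3 levels of batch B (9.23 to 36.6 CPM) also lay above all of batch A (1.76 to 5.69 CPM), with means of 3.88 ± 1.53 and 18.5 ± 9.06 CPM. This 4.77-fold difference was 2.24 on the log2 scale (SE 0.63, edgeR adjusted p = 0.0196). Without the seventh Sox2-positive library of batch B, which had 36.6 CPM, the Grhl3 difference was 1.99 with an edgeR adjusted p of 0.0582.

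**Figure D3:**
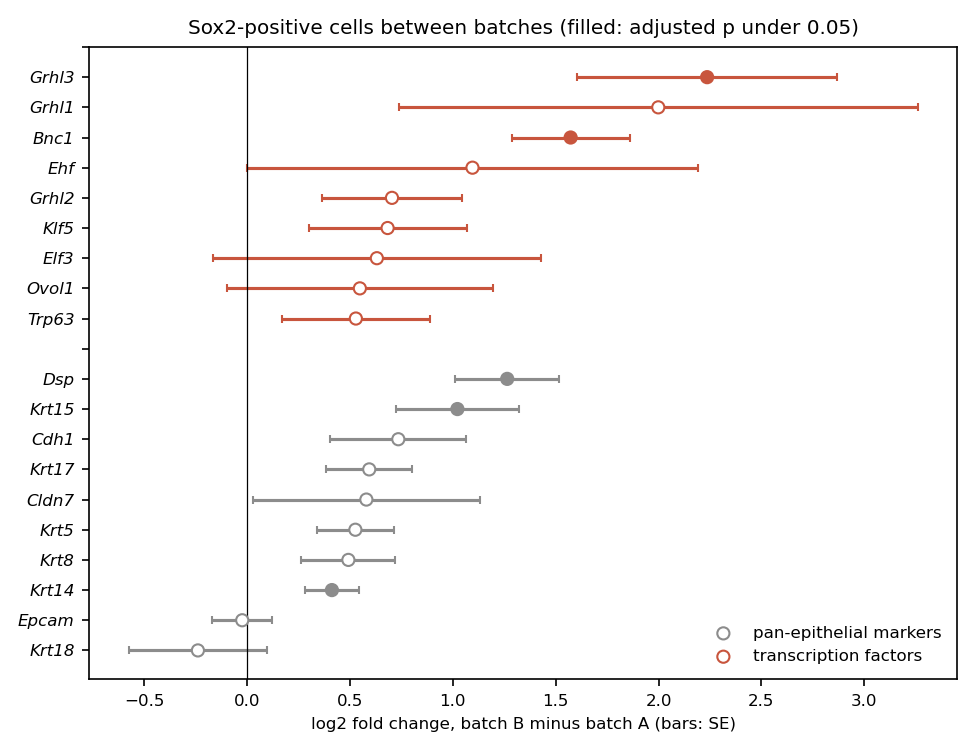
Log2 fold change between the batches in Sox2-positive cells, batch B minus batch A, for the 9 genes (red) and the 10 pan-epithelial markers (grey), with bars for the SE. Filled points have an adjusted p under 0.05; all 9 genes lie above 0, and Bnc1 and Grhl3 are the filled ones among them.

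These 2 of 9 genes compare with 4.85% of all tested genes called higher in batch B, 5.54% called lower and 10.4% called in either direction. Batch B was the higher side for 833 of the called genes and the lower side for 952, or 666 and 1214 when library totals replaced TMM scaling. The other 7 genes had higher means in batch B too, with log2 differences from 0.53 for Trp63 to 2.00 for Grhl1 and edgeR adjusted p-values between 0.227 and 0.743. Trp63 levels did not overlap between the batches (170.2 to 264 against 286 to 347 CPM), but its difference of 0.53 (SE 0.36, edgeR adjusted p = 0.441) did not pass. The median over the 9 genes was 0.70, against 0 over all genes. By limma-voom with sample quality weights 5 of 9 passed, adding Trp63, Grhl1 and Grhl2 with adjusted p-values of 0.000943, 0.00253 and 0.00173. That method also called more of all 17190 genes, 3313 against 1785 by edgeR, with 1687 of them higher in batch B.

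Markers of other cells also moved between the batches in Sox2-positive cells. All 8 glial and neural crest markers were lower in batch B, and their summed level was 921 to 1184 CPM in batch A and 50.6 to 94.5 CPM in batch B. Of 5 ameloblast markers tested (of 7 listed), 4 were lower in batch B, with sums of 293 to 349.5 CPM in batch A and 9.72 to 17.5 CPM in batch B, and 2 of the 7 had no count in either group. Of 12 mesenchymal markers 6 were lower, with sums of 1539 to 2149.8 CPM in batch A and 734 to 850.5 CPM in batch B.

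Of 10 pan-epithelial markers 3 were higher in batch B (Dsp, Krt14 and Krt15) and 7 were not called by edgeR. Of all 10, 7 had an unadjusted p under 0.05, and over the alternatives 1 to 6 were higher and at most 1 lower. Their sums overlapped, at 4266 to 4791 CPM (median 4529) in batch A and 4519 to 6926 CPM (median 6588) in batch B. Krt5 was at 539.9 and 592 CPM in the batch B libraries numbered 1 and 2 and at 1206 to 1374 CPM in those numbered 3 to 7. Over all Sox2-positive libraries the summed endothelial markers reached at most 36.9 CPM, leukocyte markers 14.1 CPM and erythroid markers 11.7 CPM. The part of these shifts in the Bnc1 and Grhl3 differences was not tested, and day and mice cannot be told apart.

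In Sox2-negative cells Ehf and Grhl3 were called higher in batch B, both from few counts. Ehf had 3 counts over the batch A libraries and 93 over those of batch B, a ratio of 28.2 (95% counting interval 9.35 to 139), and 2 of the 4 libraries carried most of them. The edgeR adjusted p was 0.032 for Ehf, and over the alternatives it ranged from 0.0223 to 0.213. The call was lost without the third, the fourth or the sixth Sox2-negative library of batch A, and without the second or the fourth of batch B. Grhl3 had 2 counts over the first and 25 over the second, a ratio of 11.4 (95% counting interval 2.84 to 99.0) with an edgeR adjusted p of 0.0467. The Grhl3 call was lost in 17 of the 23 fits that left out 1 library, and without the first Sox2-negative library of batch B its edgeR adjusted p was 0.715. Over all alternatives that p ranged from 0.00991 to 0.774, and by limma-voom it was 0.494. These 2 of 9 genes compare with 5.85% of all genes called higher, 5.35% called lower and 11.2% called in either direction. Over all genes 1005 were higher and 919 lower in batch B, and 661 and 1388 on library totals.

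Trp63 in Sox2-negative cells had a log2 difference between the batches of 1.28 (SE 0.43) and an edgeR adjusted p of 0.0541, with ranges that overlapped. It was called by limma-voom (adjusted p = 0.0309) and by edgeR with no filter (adjusted p = 0.000971). Without the second, the fourth or the fifth Sox2-negative library of batch A its edgeR adjusted p was 0.0102, 0.0287 or 0.0489, and the highest over the alternatives was 0.186. Of 10 pan-epithelial markers 6 were higher in Sox2-negative cells of batch B, and erythroid markers rose in 5 of 7, with sums of 985 to 1187 CPM in batch A and 53611 to 62038 CPM in batch B. Endothelial markers fell in 8 of 8 and leukocyte markers in 6 of 9. The part of this change in cell makeup in the Trp63, Ehf and Grhl3 values was not tested.

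Whether the difference between the populations itself changed from batch A to batch B was asked with the interaction term. By edgeR 0 of 9 genes passed, against 7.04% of all genes (2.82% higher and 4.22% lower), with 2 of 9 at an unadjusted p under 0.05 (Ovol1 and Ehf). DESeq2 and limma-voom also called 0. The smallest edgeR adjusted p was 0.106, for Ovol1, whose Sox2-negative libraries held 4 counts for batch A against 0 for batch B. Grhl1, Ehf and Bnc1 had standard errors between 1.75 and 1.81 on the log2 scale, so differences of several-fold between the batches were not detectable for them. Those of Elf3, Ovol1 and Grhl3 were 1.37, 1.28 and 0.91, so differences of several-fold could be missed for these genes as well.

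**Figure D4:**
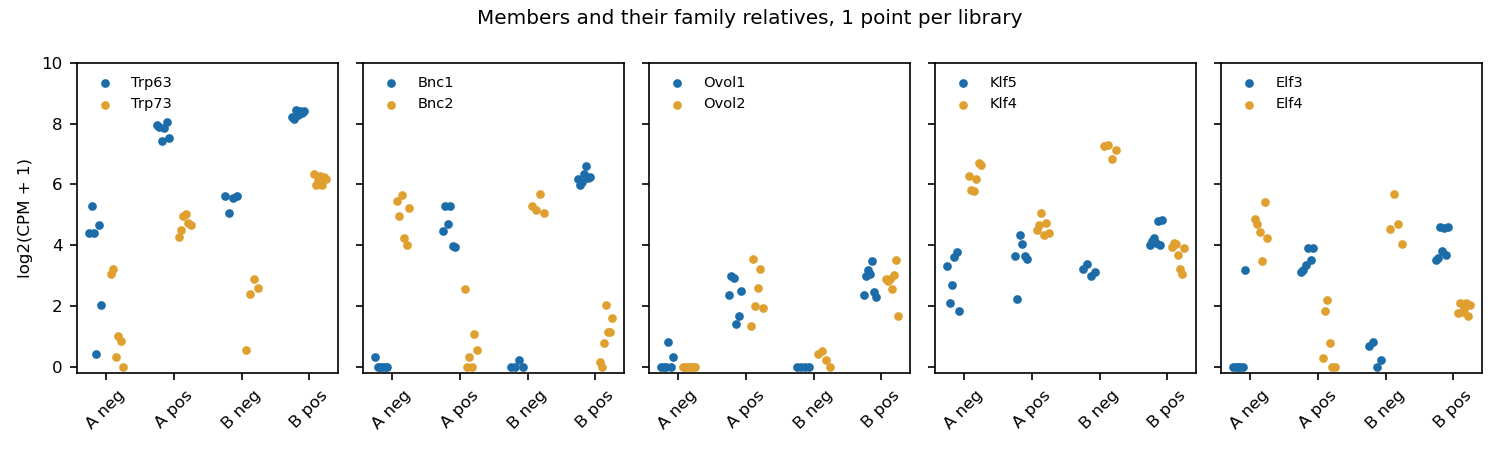
Level as log2(CPM + 1) in every library for 5 of the genes (blue) and a relative from the same family (orange), by batch and population, labelled as in the plot of levels by library. Trp73 and Ovol2 follow Trp63 and Ovol1, while Bnc2, Klf4 and Elf4 are higher in Sox2-negative cells.

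Relatives of these genes within their families took different directions. This list and the lists of other factors, targets and repressors below were chosen with earlier results of these data known. Their counts and p-values between the populations are therefore descriptions. Of 29 relatives 26 were tested: 4 were higher in Sox2-positive cells, 11 were lower and 11 were not called, beside 24.9% of all genes higher and 32.5% lower. Their median log2 difference was -0.02, against -0.12 over all genes. In the p53 family both relatives of Trp63 were higher in Sox2-positive cells. Trp73, which encodes p73, had means of 2.91 and 25.3 CPM in Sox2-negative and Sox2-positive cells of batch A and 4.03 and 71.1 CPM in batch B (log2 difference 3.59, SE 0.47, edgeR adjusted p = 3.06e-07). Trp53, the tumour suppressor, was higher by 1.15 (SE 0.11, edgeR adjusted p = 2.5e-09), from 134 to 250.3 CPM in batch A and from 87.5 to 239.9 CPM in batch B.

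The basonuclin pair split. Bnc2, which is known from fibroblasts as well as keratinocytes, had means of 31.8 CPM in Sox2-negative and 1.12 CPM in Sox2-positive cells of batch A, and 39.0 and 1.19 CPM in batch B. It was lower in Sox2-positive cells by a log2 difference of -4.97 (SE 0.55, edgeR adjusted p = 2.09e-08). Ovol2, a repressor of mesenchymal genes, shared the pattern of Ovol1. It had 0 counts in all 6 Sox2-negative libraries of batch A, where Sox2-positive cells had 5.21 CPM, at least 7.06-fold higher at 3 counts per library. In batch B it had 0.230 and 6.17 CPM.

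Of the Krüppel-like relatives, Klf2, Klf3, Klf4, Klf7 and Klf12 were lower in Sox2-positive cells, and none was called higher. Klf4, a factor of differentiating epithelial cells, had 77.0 CPM in Sox2-negative and 23.9 CPM in Sox2-positive cells of batch A, and 141 and 12.4 CPM in batch B. Its log2 difference was -2.55 (SE 0.24, edgeR adjusted p = 8.31e-10). Klf2, known from endothelium, had 53.2 and 3.37 CPM in batch A. The levels of batch B were 31.1 CPM and 0 counts in all 7 Sox2-positive libraries, at least 43.3-fold lower at 3 counts per library. Klf3 was lower by -1.11 (edgeR adjusted p = 3.49e-06), while Klf13 differed by 0.08 (edgeR adjusted p = 0.658).

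Among ETS relatives, Elf4 had 23.9 CPM in Sox2-negative and 1.18 CPM in Sox2-positive cells of batch A and 28.3 and 2.77 CPM in batch B, a log2 difference of -3.86 (SE 0.47, edgeR adjusted p = 1.09e-07). Spdef was near 3 counts per library in many libraries and was higher in Sox2-positive cells by 2.14 (SE 0.89, edgeR adjusted p = 0.0416). Ubp1, of the wider grainyhead family, was lower by -0.48 (edgeR adjusted p = 0.01).

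Other transcription factors of dental and skin epithelium were mixed. Of the 10 tested 5 were higher in Sox2-positive cells, 3 lower and 2 not called, with a median of 1.31. The shares over all genes were 24.9% higher and 32.5% lower. Dlx3 was lower by -1.09 (SE 0.14, edgeR adjusted p = 1.28e-07). Sp6, a factor of enamel-forming epithelium, had 542 CPM in Sox2-positive cells of batch A and 147 CPM in those of batch B, on either side of the Sox2-negative means of 167 and 252 CPM.

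Reported targets of the factors were mostly higher in Sox2-positive cells. Both target lists were chosen with earlier results of these data known, so this carries no independent weight. Of 15 reported p63 targets 11 were higher, 2 were lower and 2 were not called, with a median of 2.61. Over all genes 24.9% were higher and 32.5% lower. Krt5 and Krt14, the keratins of basal epithelial cells, were higher by 4.27 and 3.52, and the junction genes Perp and Dsc3 by 2.61 and 4.64. The lower ones were Fgfr2, a growth factor receptor (-0.82), and Nectin1, an adhesion gene (-1.18). All 10 tested targets of grainyhead-like factors were higher, with a median of 2.95, among them Epcam (4.18) and Cdh1 (2.11), which encode epithelial adhesion proteins, Arhgef19 (2.79) and the splicing factor gene Esrp1 (3.10). These values are log2 differences, and each named target here passed the edgeR test over all genes at an adjusted p of 0.000331 or less. Krt5, Krt14, Epcam and Cdh1 also belong to the pan-epithelial markers, so the target lists and that list share genes.

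Between the batches in Sox2-positive cells, 4 of 15 p63 targets were higher in batch B (Cldn1, Fgfr2, Krt14 and Nectin1) and Satb1 was lower. Of 10 tested grainyhead targets, 0 were called by edgeR, 1 had an unadjusted p under 0.05, DESeq2 called 0 and limma-voom called 5. Over all 17190 genes edgeR called 4.85% higher and 5.54% lower in batch B, and limma-voom called 3313 genes in either direction.

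Ovol and grainyhead-like factors are known to oppose repressors of the epithelial state. These repressors, also listed with earlier results of these data known, were lower in Sox2-positive cells in 6 of 7 cases, beside 32.5% of all genes. Their median log2 difference was -6.76, or -5.70 with genes at 0 counts set to their bound. Twist1 and Prrx1 of this list are also among the mesenchymal markers. Twist2 had 80.5 CPM in Sox2-negative cells of batch A and 93.1 CPM in batch B and 0 counts in all 13 Sox2-positive libraries. Prrx1 was lower by -7.03 and Zeb2 by -3.08 (edgeR adjusted p = 2.39e-13 and 1.19e-07). The exception was Snai2, which encodes Slug. It had 27.0 and 150.3 CPM in Sox2-negative and Sox2-positive cells of batch A and 27.6 and 161 CPM in batch B, a log2 difference of 2.51 (SE 0.21, edgeR adjusted p = 1.41e-10). Within Sox2-positive cells, Zeb1, Zeb2 and Prrx1 were lower in batch B than in batch A, by -2.13, -3.32 and -2.21 (edgeR adjusted p = 0.0161, 6.97e-08 and 0.0111). These are 3 of 7 repressors, beside 5.54% of all genes called lower. In the same comparison 8 of 8 glial and neural crest markers and 6 of 12 mesenchymal markers were lower. The part of such cells in the repressor values was not tested.

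Profiles over the 23 libraries were compared with those of 11093 genes with a mean of at least 10 CPM. Likeness was the root-mean-square difference of log2(CPM + 1) after centring each gene on its own mean, for the 6 members with at least 10 CPM in Sox2-positive cells. It is a description over libraries that share batches and sorts. Trp63 was nearest to Itga3 (0.847), an integrin subunit gene also on the p63 target list, then to Prom2 and Ell3. Bnc1 was nearest to Tmprss13 (0.496), Dapl1 and Trpv6, and Grhl2 to Rbbp8 (0.463), Galnt1 and Tmem254b. Grhl3 was nearest to Cldn1 (0.661), a tight junction gene that also rose in batch B, then to Sfn and Ociad2. Klf5 was nearest to Slc4a2 (0.433), Cog2 and Acadm, and Elf3 to Acaa1b (0.595), Krt14 and Fam213a. Among the members themselves the closest were Grhl2 and Elf3, at 0.692.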

How the data were processed

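RNA was measured in 23 libraries. The authors deposited estimated counts (expected counts) per gene, with no scaling between libraries that the sources state; the submitters' processing notes list FastQC, Trimmomatic, Salmon and build mm10, with no versions. Strand settings are not given in the sources used here. Of the nonzero values 0.000436% were whole to a tolerance of 1e-06, so a scaling per gene is possible and not given in the sources used here, and counts were rounded before testing. Symbols came from GENCODE M21 (GRCm38) for 54094 of 54347 identifiers, version dropped.

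Genes were tested with edgeR 4.0.16 in R 4.3.3 (TMM, filterByExpr with a minimum count of 10, quasi-likelihood F test, two-sided, Benjamini-Hochberg over 17190 genes, called at an adjusted p under 0.05). The comparison of populations over both batches had batch as a covariate, and the within-batch, between-batch and interaction terms came from a model of the 4 group means. The SE is the absolute log2 fold change over the square root of F. Fits were tested on simulated data. Alternatives were DESeq2 1.42.0, limma-voom with limma 3.58.1, other scalings, other filters, a replicate block and libraries left out.

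The members and lists were chosen with earlier results of these data known. From each of the lists of relatives, other factors, reported targets and repressors, the 4 genes with the highest mean CPM were named, and every relative past a log2 difference of 2 in size. Genes of the lists named singly because they were called between batches, or were the lower p63 targets, were chosen after their values were seen. Some genes that this rule would name are not reported here. ATAC-seq libraries were not analysed here.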

Additional observations from a re-analysis of the deposited data

Results flagged for a closer look

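Within groups of 4 to 7 libraries, 30 of 36 combinations of gene and group were searched for a library that stood far from the others, leaving out 6 that held no library above 3 counts. For normally distributed values chance gives such a library in about 1 in 20 groups. That rate need not hold for groups in which most libraries have counts near 0. Such libraries were found in 4 groups, all in Sox2-negative cells. Trp63 was at 32.6 CPM in the second Sox2-negative library of batch B, with the nearest at 45.9. Grhl1 was at 13.7 CPM in the same library, with the nearest at 0.235. Grhl3 was at 2.66 CPM in the first Sox2-negative library of batch B, with the nearest at 0.166. Elf3 was at 8.12 CPM in the sixth Sox2-negative library of batch A, and the other 5 were at 0.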

How the results depend on the processing

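Bnc1 stayed called between batches in Sox2-positive cells in every alternative (adjusted p from 1.19e-07 to 0.00207), and Grhl3 in all but the one without the seventh Sox2-positive library of batch B (0.00044 to 0.0582). Low counts limit Grhl1, Ehf and the Sox2-negative values. Scaling by library totals moved the median of all genes by 0.12 for the population difference, by 0.15 within batch B and by -0.15 for the batch difference in Sox2-negative cells, where limma-voom moved it by 0.10.

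Genes called differed by more than 1.5 times in few cases. Without the batch B libraries numbered 1 and 2, they numbered 4445 in place of 7319 for the populations within batch B, 1159 in place of 1785 between batches in Sox2-positive cells, 754 in place of 1924 in Sox2-negative cells and 481 in place of 1210 for the interaction, where fewer samples were fitted. By limma-voom 3313 genes were called between batches in Sox2-positive cells, and the cause was not tested.

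With the library number as a replicate block, 8795 genes in place of 9879 were called between populations and 557 for the interaction. Library numbers are not known to pair samples: deviations of same-numbered libraries correlated between -0.0228 and 0.00952 in batch A and between 0.00228 and 0.0516 in batch B, and 0 of 6 and 1 of 4 libraries correlated best with their own number. Under this block the Ehf difference within batch B was 0.43, and the interaction was 3.73 for Grhl1 and -0.70 for Elf3, each of opposite sign to the value without it.

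Signs also changed elsewhere, for log2 values near 0 or resting on few libraries, and the cause was not tested. By limma-voom the population difference of Ehf was -0.036, that of Grhl1 in batch A -0.35, the Sox2-negative batch difference of Elf3 0.90, and the interaction 2.93 for Grhl1, 0.71 for Grhl3 and -0.35 for Elf3. With library totals the Sox2-negative batch difference of Klf5 was -0.020. Without the batch B libraries numbered 1 and 2, the Sox2-negative batch difference was 0.70 for Bnc1, -4.51 for Grhl1 and -0.16 for Grhl2, and the interaction 6.57 for Grhl1 and 1.64 for Grhl3.

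With single libraries left out, the population difference ranged from -0.027 to 2.35 for Grhl1 and from -0.048 to 1.36 for Ehf. It ranged from -0.67 to 1.88 for Grhl1 in batch A, from -1.38 to 0.15 for Ehf in batch B, and from 2.71 to 8.78 for Elf3 in batch A, the last without its sixth Sox2-negative library. The Sox2-negative batch difference ranged from -1.37 to 1.31 for Bnc1, -0.024 to 0.36 for Klf5, -2.15 to 4.07 for Elf3 and -2.44 to 3.37 for Grhl1. The interaction ranged from -3.44 to 2.80 for Elf3, -1.38 to 4.45 for Grhl1 and -2.82 to 1.45 for Grhl3.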

Other observations

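The Sox2-positive libraries of batch B numbered 1 and 2 differed from those numbered 3 to 7 in several epithelial genes, with no test made of this split. Grhl3 was at 9.23 and 10.7 CPM in the former and at 15.9 to 36.6 CPM in the latter. Elf3 was at 10.4 and 10.9 CPM against 11.9 to 23.4, and Trp63 at 297 and 286 CPM against 310 to 347. The basal keratin genes stood apart more clearly: Krt5 was at 592 and 539.9 CPM against 1206 to 1374, Krt14 at 894 and 842 CPM against 1325 to 1515, and Krt15 at 96.0 and 88.6 CPM against 236 to 282. Bnc1, Grhl1, Grhl2, Ovol1, Klf5 and Ehf overlapped between these libraries.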
